A study of Mus musculus with 7 samples.

Results

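The genes described are 40 genes of the cell division cycle, of which 27 act in mitosis and 13 in DNA replication, out of 34866 genes in the deposited table. They were chosen by symbol, as the rows whose Ensembl ID maps to a set of symbols of S phase and mitosis genes, a rule that uses no expression threshold. RNA was sequenced in bulk from whole ovaries of female mice aged 8 to 12 weeks, and the study asked how ovarian expression differs with genotype, diet and fertility. The 7 libraries comprised 2 from fertile Abcg5/g8 KO mice fed VOFD (knockout VOFD), 3 from infertile Abcg5/g8 KO mice fed CD (knockout CD) and 2 from fertile WT mice fed CD (wild type CD). The full names of both diets, and whether each library was a separate animal, were points not given in the sources used here, and each ovary was homogenised by itself. P-values therefore measure the spread between these libraries, which may be partly technical.

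Cells copy their DNA in S phase and divide it in M phase, and the genes needed for each step are switched on in proliferating cells and silent in resting ones. Replication needs the MCM helicase, which is loaded on origins beforehand, and the enzymes of nucleotide supply, which E2F factors induce. Mitosis is driven by cyclin B with CDK1 and ends when the anaphase-promoting complex destroys cyclin B. In the ovary, granulosa cells of growing follicles are the main dividing population, and they leave the cycle when they become luteal cells.

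The promoters of mitosis and replication genes differ in the short elements they carry, so a few are shown before the expression values. Promoter windows of 250 bases before to 50 after the start of the gene were taken from RefSeq (GRCm38.p6), which gave 34 of the 40 genes, 23 for mitosis and 11 for replication. Both strands were searched for the cell cycle homology region (CHR, TTTGAA), for the CCAAT box (CCAAT) and for 3 E2F site forms (TTTGGCGC, TTTCGCGC or TTCCCGCC). In the member promoters, 5 pairs of neighbouring matches shared bases. In the windows below, printed 5′ to 3′ on the strand of the gene, capitals mark these matches. Ccnb2 and Cdc20 stand for mitosis genes that differed most between libraries and Ccnb1 for one that differed little, while Mcm3 and Rrm2 were among the more variable replication genes and Tyms among the least. They were chosen after their values were seen.
Ccnb2 (chr9:70421505-70421804, minus strand): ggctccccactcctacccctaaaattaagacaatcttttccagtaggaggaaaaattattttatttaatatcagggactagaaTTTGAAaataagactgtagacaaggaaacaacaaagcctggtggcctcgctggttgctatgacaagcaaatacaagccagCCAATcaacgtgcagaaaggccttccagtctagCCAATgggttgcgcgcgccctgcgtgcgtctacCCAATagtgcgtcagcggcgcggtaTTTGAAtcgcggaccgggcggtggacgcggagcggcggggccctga
Cdc20 (chr4:118437294-118437593, minus strand): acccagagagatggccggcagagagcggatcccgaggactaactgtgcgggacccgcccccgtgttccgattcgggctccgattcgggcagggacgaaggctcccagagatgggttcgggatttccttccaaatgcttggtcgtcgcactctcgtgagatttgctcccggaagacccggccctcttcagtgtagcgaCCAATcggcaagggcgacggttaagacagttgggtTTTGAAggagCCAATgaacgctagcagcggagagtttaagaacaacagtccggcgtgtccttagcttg
Ccnb1 (chr13:100786437-100786736, minus strand): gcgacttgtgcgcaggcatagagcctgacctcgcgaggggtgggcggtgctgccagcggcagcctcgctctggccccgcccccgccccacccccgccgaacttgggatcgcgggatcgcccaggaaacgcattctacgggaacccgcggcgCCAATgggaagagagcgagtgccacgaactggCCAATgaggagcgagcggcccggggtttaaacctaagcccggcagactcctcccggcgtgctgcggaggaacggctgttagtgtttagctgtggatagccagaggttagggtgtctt
Mcm3 (chr1:20820263-20820562, minus strand): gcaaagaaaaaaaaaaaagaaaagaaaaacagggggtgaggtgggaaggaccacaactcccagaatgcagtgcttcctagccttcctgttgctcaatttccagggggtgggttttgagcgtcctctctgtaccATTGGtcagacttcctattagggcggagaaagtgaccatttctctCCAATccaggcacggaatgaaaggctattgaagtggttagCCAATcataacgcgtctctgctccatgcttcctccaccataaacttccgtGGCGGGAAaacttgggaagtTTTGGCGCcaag
Rrm2 (chr12:24708004-24708303, plus strand): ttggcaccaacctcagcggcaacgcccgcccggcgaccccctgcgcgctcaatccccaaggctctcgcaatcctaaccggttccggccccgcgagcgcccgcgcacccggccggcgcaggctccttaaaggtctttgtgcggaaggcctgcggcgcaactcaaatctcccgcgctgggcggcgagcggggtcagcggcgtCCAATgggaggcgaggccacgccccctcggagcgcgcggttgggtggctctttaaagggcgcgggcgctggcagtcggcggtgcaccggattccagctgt
Tyms (chr5:30073576-30073875, minus strand): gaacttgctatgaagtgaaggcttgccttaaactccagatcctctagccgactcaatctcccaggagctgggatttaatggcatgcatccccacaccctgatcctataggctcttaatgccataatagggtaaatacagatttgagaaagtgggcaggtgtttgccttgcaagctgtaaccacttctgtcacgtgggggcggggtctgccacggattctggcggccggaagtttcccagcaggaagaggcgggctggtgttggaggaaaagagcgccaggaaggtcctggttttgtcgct

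Of mitosis gene promoters, 78.3% (18 of 23) held a CHR, against 9.09% (1 of 11) of replication gene promoters and 20.2% of the 27025 genes with a window. Every mitosis gene with a CHR also had a CCAAT box, a combination found in 8.97% of all genes. A gene with more than 1 window was counted if any of them held the motif, so both motifs need not share a window. E2F forms were in 45.5% (5 of 11) of replication promoters, 4.35% (1 of 23) of mitosis promoters and 3.39% of all. The 5 replication genes were Mcm3, Mcm5, Mcm6, Mcm7 and Rrm1, and the 1 mitosis gene was Cdk1. The CCAAT box was common to both classes, in 91.3% of mitosis and 72.7% of replication promoters, against 41.1% of all genes. A match describes letters in a window and is no evidence of binding, and a window with no match, such as that of Tyms, says only that these letters are not in it.

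**Figure D1:**
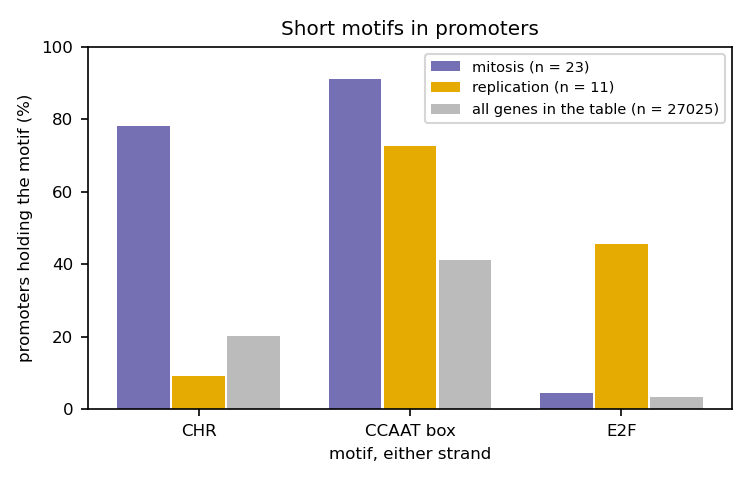
Share of genes (percent, y axis) with a promoter window that holds each motif on either strand (x axis), for mitosis genes, replication genes and all genes with a window. The CHR bar is highest for mitosis genes (78.3%) and the E2F bar for replication genes (45.5%).

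Values are in transcripts per 1000000 (TPM), a length-scaled share of each library's transcripts, so the depth of the libraries is unknown. The targeted genes were barely expressed in any ovary, at most 0.156 TPM for Abcg8 and 0.212 TPM for Abcg5 over the 7 libraries, so they cannot check the genotype labels. The 3 knockout CD libraries stood apart from each other, and library 1 differed from libraries 2 and 3 in the markers of several cell types, given further on. Library 3 was higher than the fertile libraries for most genes, since its median gene lay 0.31 above the mean of the 4 fertile libraries on the log2(TPM + 1) scale, against 0.04 and 0.08 in knockout CD libraries 1 and 2.

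The dividing-cell genes were high in knockout CD libraries 2 and 3 and at about the level of the fertile ovaries in knockout CD library 1. Of the 40 genes, 37 (92.5%) exceeded every fertile library in knockout CD library 2, where 34.8% of all 15487 tested genes did. In knockout CD library 3 the number was again 37 (92.5%), against 57.8% of all genes. In knockout CD library 1 it was 11 (27.5%), against 31.2% of all genes. After median-of-ratios scaling between libraries, an alternative chosen after seeing the data, the counts in knockout CD libraries 1, 2 and 3 were 11, 33 and 30, against 28.5%, 28.4% and 33.5% of all genes. Library 3 of the knockout CD group was highest for 29 of the 40 genes, library 2 of that group for 10, and wild type CD library 1 for Tyms.

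**Figure D2:**
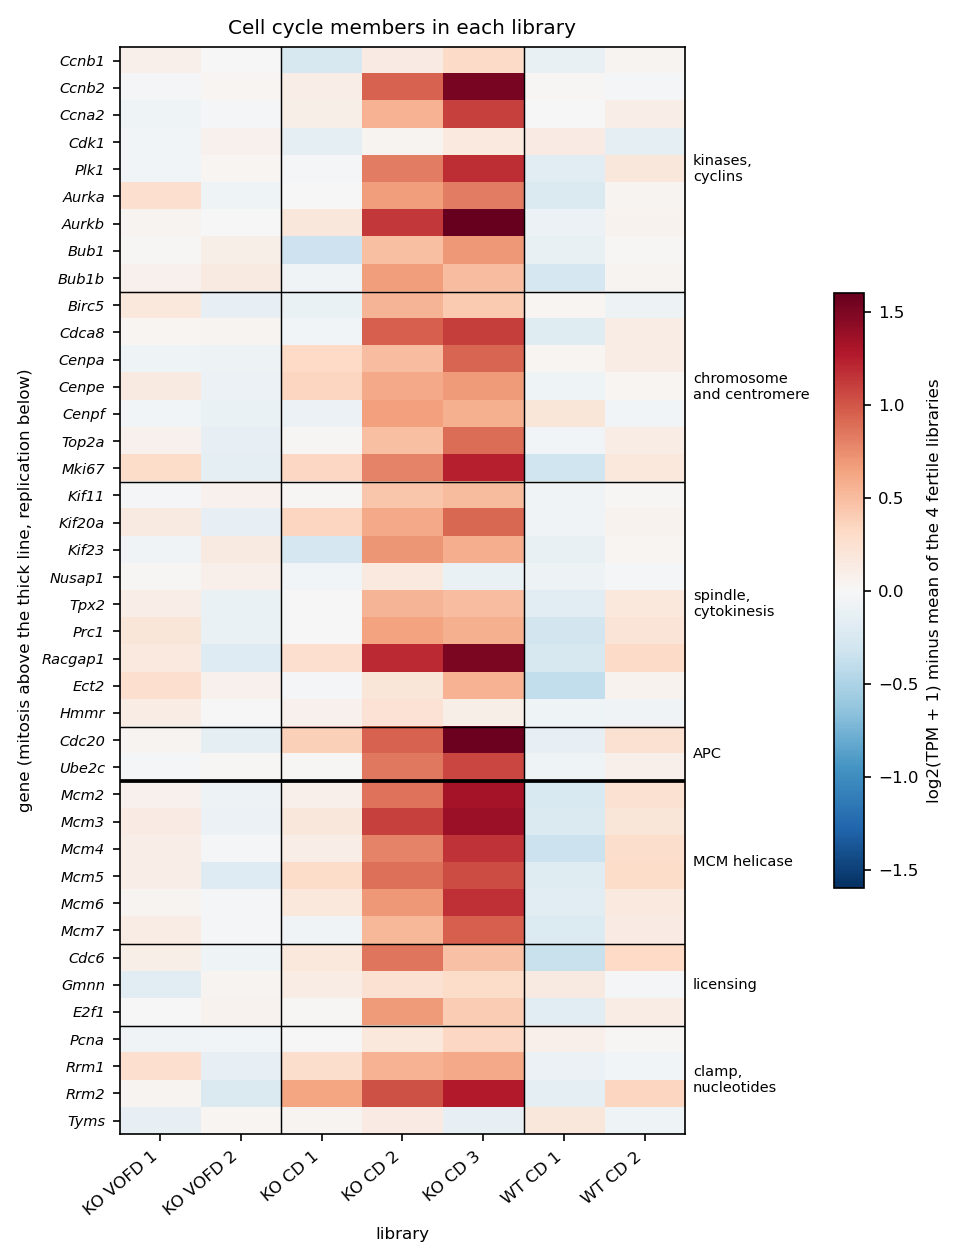
Level of each of the 40 genes (rows, grouped by role) in each of the 7 libraries (columns) as log2(TPM + 1) minus the mean of the 4 fertile libraries, with red above and blue below that mean. Knockout CD libraries 2 and 3 are red for nearly all genes, and knockout CD library 1 is close to the fertile libraries except for Rrm2 and a few others.

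Relative to the mean of the fertile libraries, the median mitosis gene lay at 0.01, 0.60 and 0.69 in knockout CD libraries 1, 2 and 3, on the log2(TPM + 1) scale. The median replication gene lay at 0.12, 0.69 and 0.96 in the same libraries. The 11 genes above every fertile library in all 3 knockout CD libraries were Ccnb2, Aurkb, Cenpa, Cenpe, Mki67, Kif20a, Cdc20, Mcm5, Mcm6, Rrm1 and Rrm2. That is 27.5% of the 40, where 11.2% of all genes did so. In bulk tissue, more dividing cells and more of these transcripts per dividing cell cannot be told apart.

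In knockout CD against wild type CD ovaries all 27 mitosis genes and 12 of 13 replication genes had a positive fold change, but no single gene passed the threshold. Median log2 fold changes were 0.48 for mitosis and 0.55 for replication genes, beside 0.19 for all genes tested, of which 72.3% were positive. With limma, 0 of 40 passed a Benjamini-Hochberg (BH) adjusted p of 0.05, as did 0.11% of all genes, and the smallest adjusted p was 0.339 (Rrm2). At an unadjusted p under 0.05, 13 members were higher and 0 lower, beside 7.86% of all genes higher. Once libraries were scaled by median of ratios, 10 members were higher at this p, beside 719 of 15487 genes. After quantile normalisation 8 were, beside 710 of 15487 genes. Dropping knockout CD library 1 gave 32 members, beside 2550 of 15328 genes. Dropping library 2 or 3 of that group gave 4 and 6, beside 1362 of 15274 and 949 of 15238 genes. Without wild type CD library 1 or 2 the median of the 40 was 0.41 and 0.64, beside 0.09 and 0.30 for all genes. With median-of-ratios scaling, which brings the median of all genes from 0.19 to 0.00, the class medians were 0.28 and 0.35 and 34 of 40 were positive, beside 50.6% of all genes. Leaving out wild type CD library 2 brought the replication median to 0.85. Without knockout CD library 1, limma called 3 members higher, against 0.685% of all genes. They were Aurkb (log2 fold change 1.39, adjusted p = 0.0378), Ccnb2 (1.23, 0.049) and Mcm3 (1.25, 0.0461).

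Knockout VOFD ovaries lay lower than knockout CD ovaries in 39 of the 40 genes, as in 9797 of all 15487, again with none past the threshold. With median-of-ratios scaling or quantile normalisation 34 of 40 were lower, beside 7718 and 7901 of all genes. The median log2 fold change was -0.45 for mitosis and -0.48 for replication genes, beside -0.10 for all genes tested, and leaving out knockout CD library 3 brought the mitosis median to -0.29. By limma 0 of 40 passed (0.0452% of all genes did), the smallest adjusted p being 0.342 for Rrm2. At an unadjusted p under 0.05, 13 were lower and 0 higher, beside 5.08% of all genes lower. That count was 31, 4 and 5 on leaving out knockout CD library 1, 2 or 3, beside 1737 of 15328, 1008 of 15274 and 588 of 15238 genes. It was 7 and 1 on leaving out knockout VOFD library 1 or 2, beside 320 of 15338 and 238 of 15312 genes. With no filter on low values it was 7, beside 930 of 24820 genes. Without knockout CD library 1, Aurkb alone was called lower (log2 fold change -1.36, adjusted p = 0.0494), where 0.346% of all genes were. This comparison shares the knockout CD libraries with the one before it, so the values of both rest on the same 3 libraries.

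Between knockout VOFD and wild type CD ovaries, the fertile groups, the genes differed little. Median log2 fold changes were 0.04 for mitosis and 0.02 for replication genes, beside 0.08 for all genes, and the range over the 40 genes was -0.20 for Rrm2 to 0.34 for Ect2. By limma 0 of 40 passed, as did 0.0129% of all genes, 0 had an unadjusted p under 0.05, and every adjusted p was 1. The number with a positive fold change was 26 of 40 (65.0%), close to the 65.4% of all genes. With median-of-ratios scaling it was 9 of 40 (22.5%) beside 48.8% of all genes, and with quantile normalisation 12 of 40 (30.0%) beside 49.7%. Ect2, which is needed for the cleavage furrow, was at 15.3 and 13.2 TPM in knockout VOFD and 9.33 and 13 TPM in wild type CD, with 12.4, 14.5 and 18.9 TPM in knockout CD. Wild type CD library 1 was lowest, and wild type CD library 2 was just under knockout VOFD library 2 (log2 fold change 0.34, SE 0.26, knockout VOFD against wild type CD, and 0.12 or 0.56 without wild type CD library 1 or 2).

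Set against all 4 fertile libraries together, the infertile knockout CD libraries had a positive fold change in all 40 genes, as had 69.2% of all genes. With median-of-ratios scaling or quantile normalisation 35 of 40 were positive, beside 50.6% and 51.6% of all genes. Medians were 0.46 for mitosis and 0.50 for replication genes, beside 0.15 for all genes. By limma 0 of 40 passed, against 0.245% of all genes, with Rrm2 nearest (log2 fold change 0.97, SE 0.20, adjusted p = 0.0992). At an unadjusted p under 0.05, 21 were higher, beside 11.7% of all genes. Without knockout CD libraries 1, 2 and 3, 32, 14 and 13 were, beside 3077 of 15328, 2079 of 15274 and 1045 of 15238 genes. Without knockout CD library 1, 20 members rose past the adjusted threshold, 13 for mitosis and 7 for replication, where 3.09% of all genes did. The 20 included Aurkb (1.38, adjusted p = 0.00772), Racgap1 (1.35, 0.0123), Cdc20 (1.26, 0.0169), Ccnb2 (1.23, 0.0104) and Ube2c (0.96, 0.0103). Among replication genes they were all 6 MCM subunits, from 0.75 for Mcm7 to 1.23 for Mcm3, and Rrm2 (1.14, 0.0207). With the library included, none of these calls was made, and in the other 6 fits that leave out a single library 0 members were called.

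**Figure D3:**
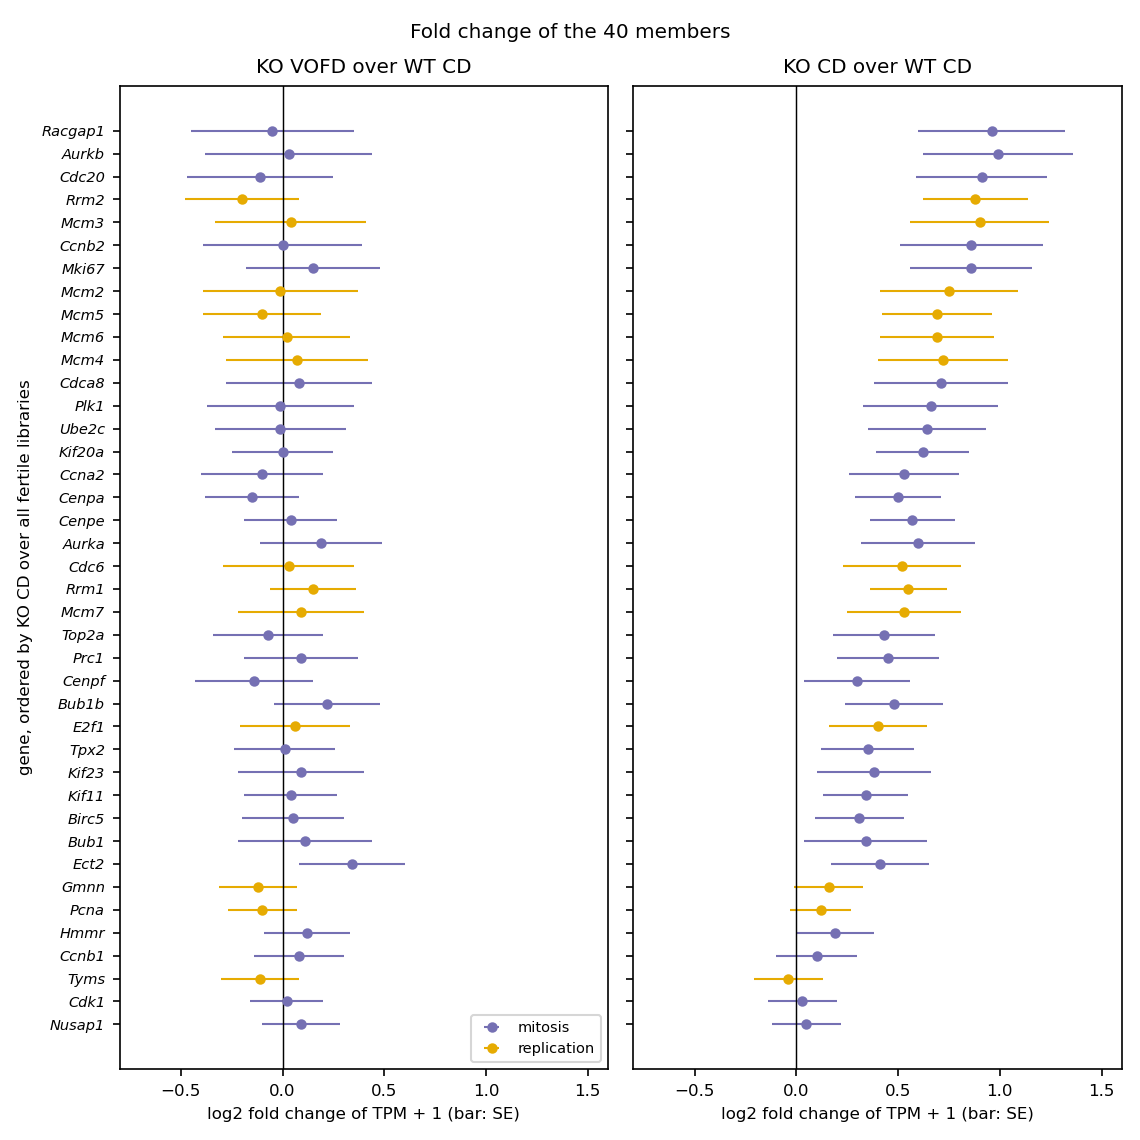
Log2 fold change of TPM + 1 (x axis, bars are SE) for each of the 40 genes (y axis), in knockout VOFD over wild type CD (left) and knockout CD over wild type CD (right), which share the wild type CD libraries. Points on the left cluster around 0, and those on the right run from -0.04 for Tyms to 0.99 for Aurkb.

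Mitotic kinases and cyclins had a median log2 fold change of 0.53 over 9 genes in knockout CD against wild type CD and of -0.40 in knockout VOFD against knockout CD. Aurkb, the kinase of the chromosomal passenger complex, which corrects faulty spindle attachments (ENSMUSG00000020897.12, GRCm38 chromosome 11, 69045647 to 69051664), had 10.5 and 10.0 TPM in knockout VOFD, 11.6, 23.3 and 33.2 TPM in knockout CD, against 9.42 and 10.6 TPM in wild type CD. All 3 knockout CD libraries were above the fertile ones, library 1 by the least. Its log2 fold change was 0.99 (SE 0.37, adjusted p = 0.434) in knockout CD against wild type CD, the largest of the 40, and -0.96 (SE 0.37, adjusted p = 0.598) in knockout VOFD against knockout CD.

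Plk1, the polo-like kinase of mitotic entry and centrosome maturation, had 12.1 and 12.7 TPM in knockout VOFD, 12.3, 22.7 and 29.6 TPM in knockout CD, against 10.9 and 14.2 TPM in wild type CD. Knockout CD library 1 lay among the fertile libraries and libraries 2 and 3 above them. The log2 fold change was 0.66 (SE 0.33, adjusted p = 0.514) in knockout CD against wild type CD and -0.66 (SE 0.33, adjusted p = 0.657) in knockout VOFD against knockout CD. The first became 1.00 without knockout CD library 1, and the second the same size with a negative sign, and they were 0.40 and -0.40 without library 3 of that group.

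The central cyclin B and CDK1 pair varied much less. Cdk1, the catalytic partner of the mitotic cyclins, was among the most abundant of the 40, with 113 and 122 TPM in knockout VOFD, 106, 119.7 and 129.7 TPM in knockout CD, against 128 and 104 TPM in wild type CD. Ccnb1, the cyclin that activates it, had 53.1 and 50 TPM in knockout VOFD, 41.8, 54.9 and 62.4 TPM in knockout CD, against 46.1 and 51.8 TPM in wild type CD. For both genes the groups overlapped, and knockout CD library 1 had the lowest Ccnb1 of all. Log2 fold changes in knockout CD against wild type CD were 0.03 (SE 0.17, adjusted p = 0.944) for Cdk1 and 0.10 (SE 0.20, adjusted p = 0.84) for Ccnb1, and median-of-ratios scaling turned both negative (-0.18 and -0.11). In knockout VOFD against knockout CD they were -0.01 (SE 0.17, adjusted p = 0.993) and -0.02 (SE 0.20, adjusted p = 0.982), and the same scaling turned both positive (0.11 and 0.09).

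Ccnb2, the second mitotic B cyclin (ENSMUSG00000032218.7, chromosome 9, 70407692 to 70421547), had 19.4 and 20.5 TPM in knockout VOFD, 21.6, 39.4 and 59 TPM in knockout CD, against 20.1 and 19.7 TPM in wild type CD. The fertile libraries were tightly grouped and every knockout CD library was above them. On the length-scaled TPM values, the ratio of Ccnb2 to Ccnb1 was 0.366 and 0.409 in knockout VOFD, 0.515, 0.718 and 0.946 in knockout CD, against 0.437 and 0.381 in wild type CD. The 2 cyclins thus stood closer in level in all 3 knockout CD libraries, a pair chosen after its values were seen. The pseudogene Ccnb2-ps was listed at 3.22 to 5.35 TPM, and reads shared with such copies could have been split in the counting. Ccna2, Aurka, Bub1 and Bub1b, which encode cyclin A, a spindle pole kinase and checkpoint kinases, had log2 fold changes of 0.34 for Bub1 to 0.60 for Aurka in knockout CD against wild type CD.

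Genes of the chromosomal passenger complex, centromere and chromosome structure had a median log2 fold change of 0.50 over 7 genes in knockout CD against wild type CD and -0.52 in knockout VOFD against knockout CD. Mki67, which coats mitotic chromosomes and is the usual marker of cycling cells (ENSMUSG00000031004.8, chromosome 7, 135689784 to 135716361), had 20.2 and 14.7 TPM in knockout VOFD, 20.8, 29 and 40.0 TPM in knockout CD, against 12.9 and 18.5 TPM in wild type CD. All knockout CD libraries were above the fertile ones, with library 1 barely above knockout VOFD library 1. Its log2 fold change was 0.86 (SE 0.30, adjusted p = 0.403) in knockout CD against wild type CD and -0.71 (SE 0.30, adjusted p = 0.619) in knockout VOFD against knockout CD.

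Top2a, the topoisomerase that untangles sister chromatids, had 87.8 and 76.3 TPM in knockout VOFD, 85, 117 and 157 TPM in knockout CD, against 81.2 and 91.4 TPM in wild type CD. Birc5, which encodes survivin of the passenger complex, had 46.9 and 37.9 TPM in knockout VOFD, 38.6, 61.2 and 55.7 TPM in knockout CD, against 42.4 and 39.3 TPM in wild type CD. For both genes knockout CD library 1 lay within the fertile range and libraries 2 and 3 above it. The knockout CD against wild type CD log2 fold change was 0.43 (SE 0.25, adjusted p = 0.536) for Top2a and 0.31 (SE 0.22, adjusted p = 0.58) for Birc5. Knockout VOFD against knockout CD gave -0.50 (SE 0.25, adjusted p = 0.652) for Top2a and -0.27 (SE 0.22, adjusted p = 0.763) for Birc5. Leaving out knockout CD library 1 brought Top2a to 0.65 and Birc5 to 0.50 in the first comparison, and Birc5 to -0.46 in the other. Leaving out library 3 of that group brought Top2a to 0.21 and -0.29, and leaving out its library 2 brought Birc5 to 0.18 and -0.14. Birc5 was at -0.42 and -0.12 without knockout VOFD library 1 or 2. The centromeric histone gene Cenpa and the kinetochore motor gene Cenpe were above the fertile range in all knockout CD libraries, at 39.1, 44.5 and 60.6 TPM and at 10.4, 12.6 and 13.5 TPM, while Cdca8, which encodes borealin, and the kinetochore gene Cenpf were so in libraries 2 and 3 only.

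Spindle and cytokinesis genes had log2 fold changes from 0.05 for Nusap1 to 0.96 for Racgap1 and a median of 0.38 over 9 genes in knockout CD against wild type CD. Racgap1, a protein of the central spindle, had 15.1 and 11.5 TPM in knockout VOFD, 16.3, 31.9 and 39.9 TPM in knockout CD, against 11.1 and 16.7 TPM in wild type CD. Knockout CD libraries 2 and 3 were well above all others, and library 1 was between the wild type CD libraries. In infertile against fertile ovaries it had the largest log2 fold change of the 40, 0.99 (SE 0.28, adjusted p = 0.195).

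Kif23, the kinesin that joins Racgap1 in the centralspindlin complex, had 38.3 and 44.4 TPM in knockout VOFD, 33.1, 65.6 and 60.3 TPM in knockout CD, against 36.7 and 40.8 TPM in wild type CD. Library 1 of the knockout CD group had the lowest Kif23 value and libraries 2 and 3 the highest. The ratio of Racgap1 to Kif23 in TPM was 0.394 and 0.259 in knockout VOFD, 0.493, 0.486 and 0.661 in knockout CD, against 0.302 and 0.41 in wild type CD. Every knockout CD ratio was thus above the fertile ones, for a pair chosen after its values were seen.

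Nusap1, a microtubule bundling protein of the spindle, hardly varied, with 22.3 and 23.4 TPM in knockout VOFD, 21.3, 24.6 and 20.5 TPM in knockout CD, against 20.8 and 21.8 TPM in wild type CD. Knockout CD held both the highest and the lowest value. Its log2 fold change of 0.04 (SE 0.17, adjusted p = 0.949) in knockout VOFD against knockout CD was the only positive one of the 40, and that of 0.00 (SE 0.13, adjusted p = 0.995) in infertile against fertile ovaries was the smallest. Kif11, Kif20a, Tpx2, Prc1 and Hmmr, which encode kinesins and proteins that organise spindle microtubules, had log2 fold changes of 0.19 to 0.62 in knockout CD against wild type CD.

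The 2 genes of the anaphase-promoting complex had the median farthest from 0 of any role group, 0.77 in knockout CD against wild type CD and -0.84 in knockout VOFD against knockout CD. Cdc20, which activates the complex at anaphase (ENSMUSG00000006398.15, chromosome 4, 118432901 to 118437352), had 17.3 and 14.9 TPM in knockout VOFD, 22.1, 33.3 and 51.7 TPM in knockout CD, against 15.2 and 20 TPM in wild type CD. Each knockout CD library was above each fertile one, and the 3 spread widely among themselves. Its log2 fold change was 0.91 (SE 0.32, adjusted p = 0.408) in knockout CD against wild type CD and -1.02 (SE 0.32, adjusted p = 0.516) in knockout VOFD against knockout CD.

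Ube2c, the ubiquitin-conjugating enzyme of the complex, had 32.7 and 33.9 TPM in knockout VOFD, 33.9, 60.4 and 71.3 TPM in knockout CD, against 31.7 and 35.3 TPM in wild type CD. Knockout CD library 1 was within the fertile range and the other 2 libraries were well above it. The log2 fold change was 0.64 (SE 0.29, adjusted p = 0.493) in knockout CD against wild type CD and -0.65 (SE 0.29, adjusted p = 0.623) in knockout VOFD against knockout CD, which became -0.43 without knockout CD library 3. Exons of 9 members, Cdc20 and Ube2c among them, overlap genes on the other strand in GENCODE M21, and since the use of strand is not stated their reads cannot be fully separated. The partner of Cdc20, Elovl1, was at 62.5 and 56.8 TPM in knockout VOFD, 68.3, 41.9 and 56.1 TPM in knockout CD, against 59.0 and 66.5 TPM in wild type CD, lowest in knockout CD library 2.

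**Figure D4:**
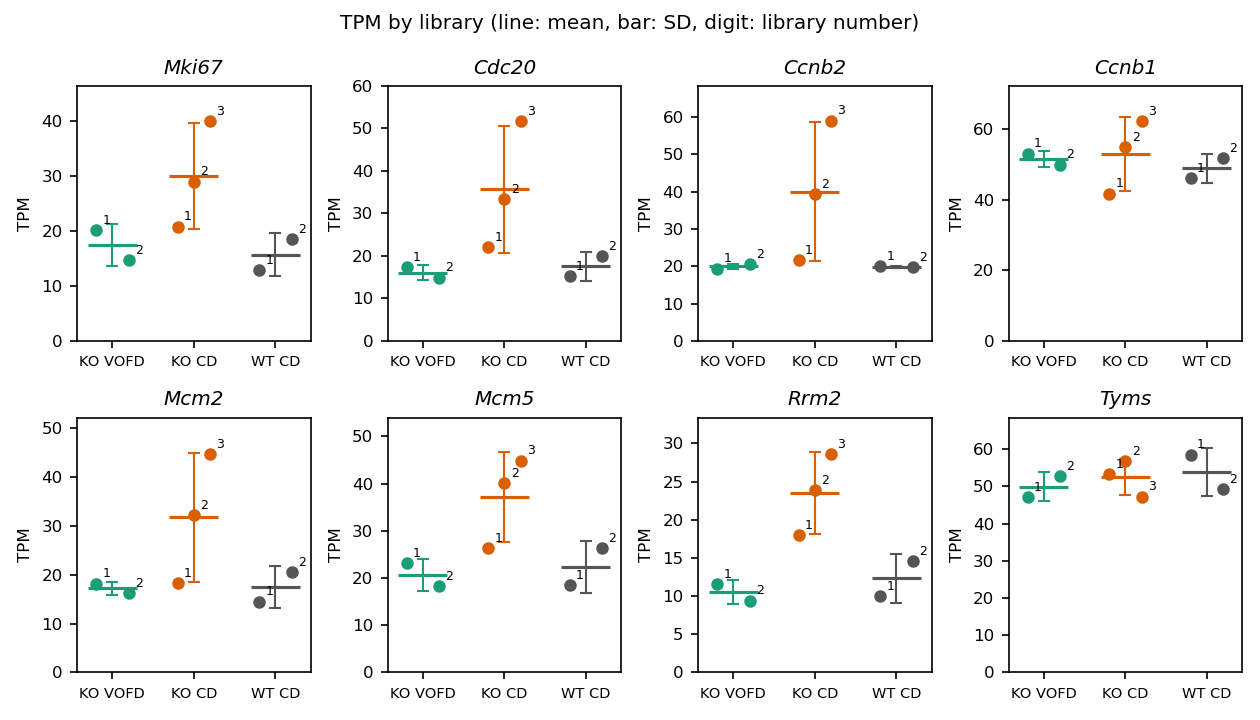
TPM (y axis) of 8 genes in knockout VOFD, knockout CD and wild type CD ovaries, with a numbered point for each library, a line at the group mean and a bar for the SD. Knockout CD libraries 2 and 3 lie above the fertile libraries for Mki67, Cdc20, Ccnb2, Mcm2, Mcm5 and Rrm2, while the groups overlap for Ccnb1 and Tyms.

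The replicative helicase had the highest median log2 fold change of the replication groups, 0.70, with all 6 subunits between 0.53 and 0.90, in knockout CD against wild type CD. In knockout VOFD against knockout CD the median was -0.72. Mcm2 had 18.2 and 16.3 TPM in knockout VOFD, 18.3, 32.3 and 44.8 TPM in knockout CD, against 14.5 and 20.6 TPM in wild type CD. Mcm5 had 23.1 and 18.3 TPM in knockout VOFD, 26.4, 40.1 and 44.9 TPM in knockout CD, against 18.5 and 26.3 TPM in wild type CD. Both genes were highest in knockout CD library 3, then library 2, while in library 1 Mcm2 was within and Mcm5 just above the fertile range. The knockout CD against wild type CD log2 fold change was 0.75 (SE 0.34, adjusted p = 0.495) for Mcm2 and 0.69 (SE 0.27, adjusted p = 0.445) for Mcm5. Knockout VOFD against knockout CD gave -0.76 (SE 0.34, adjusted p = 0.623) for Mcm2 and -0.79 (SE 0.27, adjusted p = 0.565) for Mcm5. Without knockout CD library 3 Mcm2 was at 0.47 and -0.48, and without wild type CD library 1 Mcm5 was at 0.45 in knockout CD against wild type CD.

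Mcm3 (ENSMUSG00000041859.10, chromosome 1, 20802968 to 20820312) had the largest helicase fold change, with 20.8 and 17.6 TPM in knockout VOFD, 21.5, 41.2 and 50.4 TPM in knockout CD, against 15.9 and 21.7 TPM in wild type CD. Knockout CD library 1 was again at the top of the fertile range and not above it. Per length, the subunits were not equally abundant although the helicase holds them in equal number. The most abundant, Mcm7, was 3.31 to 4.51 times the least abundant, Mcm4, across the 7 libraries. The order from high to low was Mcm7, Mcm6, Mcm5, Mcm3, Mcm2 and Mcm4 in 5 libraries, and Mcm3 stood above Mcm5 in knockout CD libraries 2 and 3. Mcm7 exons overlap Cops6 and Ap4m1 on the other strand.

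Genes of origin licensing and S phase control had a median log2 fold change of 0.40 over 3 genes in knockout CD against wild type CD and -0.34 in knockout VOFD against knockout CD. Cdc6, which loads the helicase, had 5.08 and 4.42 TPM in knockout VOFD, 5.4, 9.29 and 6.85 TPM in knockout CD, against 3.46 and 6.08 TPM in wild type CD, the lowest levels of the 40. E2f1, a transcription factor of S phase entry, had 8.79 and 9.14 TPM in knockout VOFD, 8.87, 14.7 and 12 TPM in knockout CD, against 7.6 and 9.6 TPM in wild type CD. In both, knockout CD library 2 was highest and library 1 within the fertile range. Gmnn, which encodes geminin, the inhibitor of relicensing, had 28.8 and 33.6 TPM in knockout VOFD, 35.4, 38.7 and 39.9 TPM in knockout CD, against 36.1 and 31.8 TPM in wild type CD, where knockout CD overlapped the fertile range through library 1 only.

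The knockout CD against wild type CD log2 fold change was 0.52 (SE 0.29, adjusted p = 0.533) for Cdc6, 0.40 (SE 0.24, adjusted p = 0.546) for E2f1 and 0.16 (SE 0.17, adjusted p = 0.689) for Gmnn, which median-of-ratios scaling turned to -0.05. In knockout VOFD against knockout CD it was -0.48 (SE 0.29, adjusted p = 0.688) for Cdc6, -0.34 (SE 0.24, adjusted p = 0.73) for E2f1 and -0.28 (SE 0.17, adjusted p = 0.688) for Gmnn. Single libraries weighed heavily on these genes. Without wild type CD library 1, Cdc6 was at 0.18, E2f1 at 0.25 and Gmnn at 0.25 in knockout CD against wild type CD, and without wild type CD library 2 Cdc6 was at 0.85 and Gmnn at 0.07. Without knockout CD library 2, Cdc6 was at 0.34 and -0.30 and E2f1 at 0.25 and -0.18 in the same pair of comparisons. In the second of them, E2f1 was at -0.52 without knockout CD library 1 and Gmnn at -0.17 without knockout VOFD library 1.

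The clamp and the enzymes of nucleotide supply did not share a single pattern, and their median log2 fold change was 0.34 over 4 genes in knockout CD against wild type CD and -0.31 in knockout VOFD against knockout CD. Rrm2, the small subunit of ribonucleotide reductase, which limits the supply of deoxynucleotides (ENSMUSG00000020649.11, chromosome 12, 24708241 to 24714146), had 11.6 and 9.4 TPM in knockout VOFD, 18, 23.9 and 28.6 TPM in knockout CD, against 10.0 and 14.6 TPM in wild type CD. It was the gene that most clearly set all 3 knockout CD libraries above the fertile ones, library 1 included. Its log2 fold change was 0.88 (SE 0.26, adjusted p = 0.339) in knockout CD against wild type CD, and -1.07 (SE 0.26, adjusted p = 0.342) in knockout VOFD against knockout CD, the most negative of the 40.

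Rrm1, the large subunit, was also above the fertile range in all knockout CD libraries, at 45.8 and 34.4 TPM in knockout VOFD, 45.9, 56.2 and 57.9 TPM in knockout CD, against 35.2 and 36.5 TPM in wild type CD. In library 1 the margin over knockout VOFD library 1 was slight. The ratio of Rrm2 to Rrm1 in TPM was 0.254 and 0.273 in knockout VOFD, 0.392, 0.425 and 0.493 in knockout CD, against 0.285 and 0.4 in wild type CD, and overlapped between knockout CD and wild type CD.

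Tyms, the thymidylate synthase gene, had 47.1 and 52.7 TPM in knockout VOFD, 53.3, 56.7 and 47.2 TPM in knockout CD, against 58.5 and 49.2 TPM in wild type CD. Pcna, the sliding clamp and the most abundant of the 40, had 164 and 165 TPM in knockout VOFD, 170.2, 190.4 and 215 TPM in knockout CD, against 179 and 173 TPM in wild type CD. Tyms overlapped between all groups, and Pcna was above the fertile range in knockout CD libraries 2 and 3 only. In knockout CD against wild type CD the log2 fold change was -0.04 (SE 0.17, adjusted p = 0.931) for Tyms, the only negative one of the 40, and 0.12 (SE 0.15, adjusted p = 0.738) for Pcna, which median-of-ratios scaling turned to -0.09. Knockout VOFD against knockout CD gave -0.07 (SE 0.17, adjusted p = 0.923) for Tyms and -0.21 (SE 0.15, adjusted p = 0.726) for Pcna. Pcna was at 0.03 and -0.13 without knockout CD library 3, and at 0.20 in the first comparison without library 1 of that group.

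The summed levels of mitosis and of replication genes were both highest in knockout CD libraries 2 and 3, while the gap between the classes overlapped between knockout CD and wild type CD. The mean level of the mitosis genes minus that of the replication genes, on the log2(TPM + 1) scale, was -0.22 and -0.20 in knockout VOFD, -0.35, -0.28 and -0.23 in knockout CD, against -0.21 and -0.32 in wild type CD. Group means were -0.21 ± 0.01 (SD, n = 2) in knockout VOFD, -0.29 ± 0.06 (SD, n = 3) in knockout CD and -0.26 ± 0.08 (SD, n = 2) in wild type CD, so knockout CD and wild type CD differed by less than the spread between libraries. Both knockout VOFD gaps lay above all 3 knockout CD gaps, and the difference of 0.08 exceeded the pooled SD of 0.06, but was 0.01 from summed TPM. As sums of TPM, mitosis genes made up 752 and 719 in knockout VOFD, 725, 1063.8 and 1235.0 in knockout CD, against 694 and 751 in wild type CD. Replication genes made up 494 and 471 in knockout VOFD, 519.9, 679 and 786 in knockout CD, against 475 and 515 in wild type CD.

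Other genes of the same pathways also had mostly positive fold changes in knockout CD against wild type CD, and their medians were below the 0.52 of the 40, a difference that was not tested. Among 41 further replication genes, 36 were positive in the knockout CD against wild type CD contrast (median 0.38) and 0 passed the threshold, the smallest adjusted p being 0.296 for the thymidine kinase gene Tk1 (log2 fold change 0.64), followed by the clamp loader genes Rfc5 (0.94, 0.365) and Rfc2 (0.47, 0.376). Among 39 further mitosis genes found in the table, 37 were positive with a median of 0.40 and 0 passed, led by the condensin gene Ncapd2 (0.85, adjusted p = 0.391), the kinase gene Nek2 (0.75, 0.428) and the passenger gene Incenp (0.77, 0.43). Of 18 G1 cyclin, kinase and E2F genes 17 were positive with a median of 0.30 and 0 passed, with E2f7, an E2F repressor, at 1.01 (adjusted p = 0.391), the G1 cyclin gene Ccnd1 at 0.87 (0.394) and Cdk2, a kinase of S phase entry, at 0.56 (0.433). At an unadjusted p under 0.05, 6 of 41, 7 of 39 and 4 of 18 genes of these lists were higher, against 13 of the 40 and 7.86% of all genes. In knockout VOFD against knockout CD the medians of these lists were -0.30, -0.29 and -0.32, with 0 called. At an unadjusted p under 0.05, 10 of 41, 7 of 39 and 3 of 18 genes were lower there, beside 5.08% of all genes.

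The CDK inhibitors and pocket proteins, which hold cells out of the cycle, were divided, with 5 of 10 positive and a median of 0.05 in knockout CD against wild type CD. Cdkn2b, which encodes the CDK4 and CDK6 inhibitor p15 (ENSMUSG00000073802.4, chromosome 4, 89306299 to 89311039), had 16.3 and 13.3 TPM in knockout VOFD, 1.58, 0.729 and 3.03 TPM in knockout CD, against 7.15 and 15.4 TPM in wild type CD. All 3 knockout CD libraries lay below every fertile one, library 1 included. It fell in infertile against fertile ovaries by limma (log2 fold change -2.36, SE 0.34, adjusted p = 0.0292), while the group comparisons missed the threshold at -2.14 (SE 0.41, adjusted p = 0.146) for knockout CD against wild type CD and 2.58 (SE 0.41, adjusted p = 0.128) for knockout VOFD against knockout CD. The call was lost without a filter on low values (adjusted p = 0.177), without knockout VOFD library 1 (0.0858) or 2 (0.0727), on leaving out knockout CD library 2 (0.0935) or wild type CD library 2 (0.0861), and the fold change lay between -2.67 and -2.06 over the fits without a single library.

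Cdkn1a, the p21 inhibitor gene, had 24 and 28.1 TPM in knockout VOFD, 19.2, 6.37 and 16.6 TPM in knockout CD, against 28.3 and 43.2 TPM in wild type CD, with every knockout CD library lowest (log2 fold change -1.38, SE 0.41, adjusted p = 0.342, knockout CD against wild type CD). Cdkn2c, the p18 inhibitor gene, was higher in each knockout CD library, at 33.4 and 37 TPM in knockout VOFD, 53.6, 40.9 and 41.1 TPM in knockout CD, against 31 and 26.6 TPM in wild type CD (0.63, SE 0.19, adjusted p = 0.35). In all knockout CD libraries, Cdkn2b and Cdkn1a thus stood below the fertile range and Cdkn2c above it.

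Marker genes of ovarian cell types differed between the same libraries as the cell cycle genes. The 12 granulosa markers summed to 2709.0 and 3599.8 TPM in knockout VOFD, 1905.5, 5874.6 and 6541.2 TPM in knockout CD, against 3332.3 and 2833.0 TPM in wild type CD. Above every fertile library were 0, 7 and 10 of the 12 in knockout CD libraries 1, 2 and 3, where 31.2%, 34.8% and 57.8% of all genes were. The sum of the 9 luteal markers ran the other way, with 8699.6 and 7252.9 TPM in knockout VOFD, 8595.4, 4677.4 and 4654.6 TPM in knockout CD, against 7231.9 and 9522.8 TPM in wild type CD. A sum rests mostly on its most abundant genes. Of the 9, in the order of libraries 1, 2 and 3, 3, 0 and 0 exceeded every fertile library. In knockout CD against wild type CD, all 9 log2 fold changes, taken over the 3 knockout CD libraries together, were negative. By limma they were -5.20 for Ptgfr (SE 0.36, adjusted p = 0.00108), -5.68 for Akr1c18 (SE 0.69, adjusted p = 0.0306) and -4.85 for Sfrp4 (SE 0.85, adjusted p = 0.131). Oocyte markers (12 genes) were lowest in knockout CD library 1, at 766 and 737 TPM in knockout VOFD, 293, 779.7 and 605 TPM in knockout CD, against 553 and 649 TPM in wild type CD. Their part in the result was not tested.

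**Figure D5:**
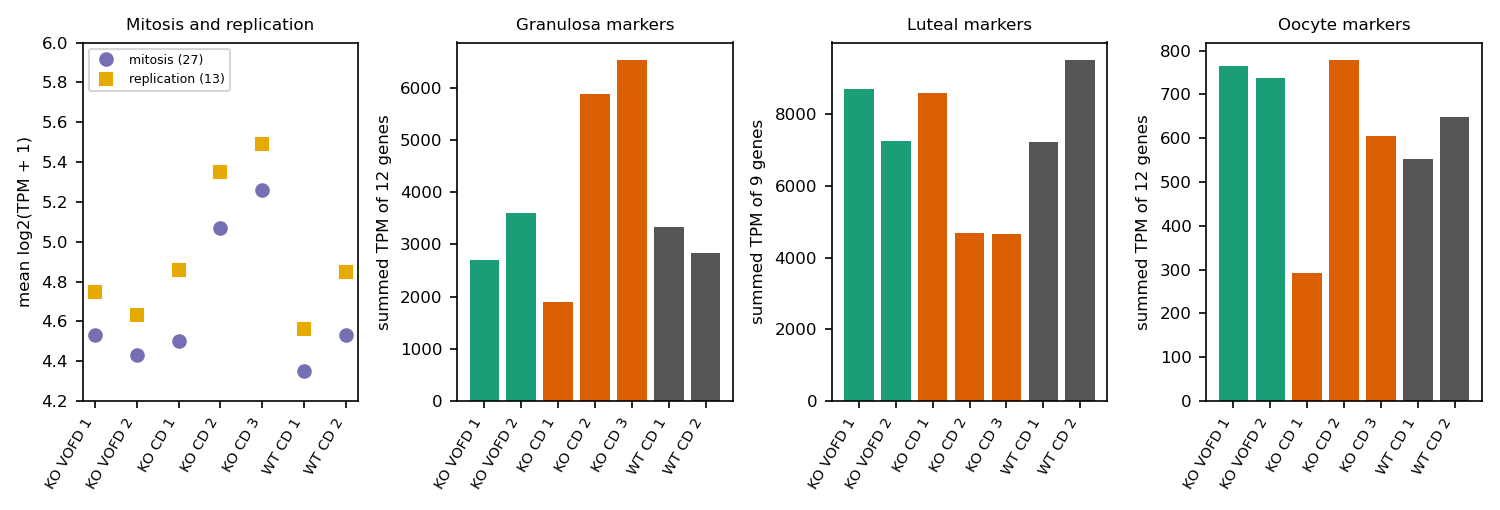
Mean log2(TPM + 1) of the 27 mitosis and 13 replication genes (left), and summed TPM of granulosa, luteal and oocyte markers (bars start at 0), in each of the 7 libraries. Knockout CD libraries 2 and 3 are highest for both gene classes and for granulosa markers and lowest for luteal markers.

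Among other cell types, the 5 theca markers summed to 179 to 227 TPM in knockout VOFD, 36.2 to 193 TPM in knockout CD and 178 to 182 TPM in wild type CD, the lowest in knockout CD library 1. Some blood cells can themselves divide. The 10 lymphocyte markers summed to 11.1 to 14.1 TPM in knockout VOFD, 11.4, 18.1 and 26 TPM in knockout CD and 9.7 to 11.4 TPM in wild type CD, with knockout CD library 1 inside the fertile range. The 8 macrophage markers summed to 237 to 285 TPM in knockout VOFD, 298 to 433 TPM in knockout CD and 219 to 277 TPM in wild type CD, with no overlap of the sums between knockout CD and the fertile groups. Singly, 3, 5 and 7 of the 8 exceeded every fertile library in knockout CD libraries 1, 2 and 3. Among all genes tested, 31.2%, 34.8% and 57.8% did, so library 1 was near that share. The 7 erythroid markers summed to 689 to 741 TPM in knockout VOFD, 1268.8 to 3051.2 TPM in knockout CD and 440 to 836 TPM in wild type CD. All 7, of which only 5 were among the genes tested, were above the fertile range in each knockout CD library. Of all genes tested, 11.2% were. Adipose markers (6 genes) summed to 449 to 1004.7, 1105.1 to 2695.8 and 187 to 568 TPM, highest in knockout CD library 1, where the cell cycle genes were lowest of that group. Endothelial markers (6 genes, 117 to 135, 98.1 to 144 and 117 to 139 TPM) and stress genes (6 genes, 106 to 121, 99.3 to 165 and 98.8 to 147 TPM) overlapped between the groups, given in the same order. No marker gene was at 0 in all libraries, and the part of these cells in the levels of the cell cycle genes was not tested.

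By limma, 2 of 9 luteal markers fell in knockout CD against wild type CD, where 8 of all 15487 genes were called lower and 9 higher. None passed of the granulosa (12 tested), oocyte (12), theca (5), lymphocyte (6), macrophage (8), erythroid (5), endothelial (6), adipose (6) and stress (6) lists. The median log2 fold changes in that comparison were -1.31 for luteal, 0.55 for granulosa, -0.22 for oocyte, 0.54 for theca, 0.43 for lymphocyte, 0.57 for macrophage, 1.71 for erythroid, -0.05 for endothelial, 1.96 for adipose and -0.08 for stress genes. The luteal count in this comparison was 5 on leaving out knockout CD library 1, where 69 of all 15328 genes were called lower. It was 1 on leaving out library 3 of that group or either wild type CD library, 1 with median-of-ratios scaling or quantile normalisation and 0 with no filter. Over all genes, 0 to 12 were called lower in these other fits. In infertile against fertile ovaries without knockout CD library 1, the fit in which 20 of the 40 cell cycle genes rose, 6 of 12 granulosa markers rose and 1 fell, 6 of 9 luteal markers fell, and 3 erythroid and 1 theca marker rose. Of all 15328 genes in that fit, 473 were called higher and 192 lower. With that library included, 0 granulosa markers rose and 1 fell, 3 luteal markers fell and 1 erythroid marker rose, beside 9 of all 15487 genes higher and 29 lower. The erythroid call was lost with both scalings, no filter, the replicate block and on leaving out knockout CD library 2 or any fertile library. The erythroid count was 3 without knockout CD library 3, where 14 of all 15238 genes were called higher. The granulosa call was lost with no filter, the block and on leaving out knockout CD library 2 or any fertile library. The luteal count was 1 with no filter and 2 on leaving out any fertile library, where 3 and 9 to 23 of all genes were called lower.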

How the data were processed

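Bulk RNA sequencing of mouse ovaries was used as deposited by the authors, in transcripts per 1000000 (TPM), for 34866 genes in 7 libraries, each column summing to 1000000. GRCm38 is the only genome build named, per the submitters' processing notes. Aligner, counter, annotation version and strandedness were details not given in the sources used here. TPM keeps no depth, so no counting interval was computed.

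Versioned Ensembl IDs were matched to symbols for 34582 genes and not for 284. Coordinates and overlaps came from GENCODE M21, which held the same ID version for 37 of the 40 genes. Libraries were grouped by their titles into knockout VOFD (n = 2), knockout CD (n = 3) and wild type CD (n = 2).

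Here, values were transformed as log2(TPM + 1), which understates changes of low genes. The test took the 15487 genes that reached a TPM of 1 in 2 or more libraries, all 40 members among them. The 2-sided test of limma 3.58.1 (R 4.3.3, with data.table at version 1.17.8), with a variance trend, used 3 group means, leaving 4 residual degrees of freedom. For infertile against fertile it used 2 group means, leaving 5. P-values were adjusted over 15487 genes by Benjamini and Hochberg, with a threshold of 0.05. The fits were checked on simulated data. Promoters and tables were handled with Python 3.11.15, pandas 2.3.3 and numpy 2.4.6.

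The members, gene lists and tests were chosen with earlier results of these data known. Full statistics are given for 17 members chosen by role and for the member with the largest and smallest fold change in each comparison. Of other lists, up to 3 genes with the smallest p in knockout CD against wild type CD are named. Other genes given with values for each library (Ccnb2, Kif23, Cenpa, Cenpe, Mcm3, Rrm1, Elovl1) and the ratios of pairs were chosen after their values were seen. Alternatives were a pseudocount of 0.1, no filter, median-of-ratios scaling, quantile normalisation, the replicate number as a block and leaving out each library.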

Additional observations from a re-analysis of the deposited data

How the results depend on the processing

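The count of members past the threshold was 0 in all 4 comparisons with a pseudocount of 0.1, no filter, median-of-ratios scaling, quantile normalisation and the replicate block. Over fits without a single library it ranged from 0 to 3 in knockout CD against wild type CD, 0 to 1 in knockout VOFD against knockout CD, 0 to 0 in knockout VOFD against wild type CD and 0 to 20 in infertile against fertile, in each case highest (3, 1 and 20) without knockout CD library 1. The median of the mitosis genes then ranged from 0.33 to 0.67, -0.65 to -0.29, -0.03 to 0.12 and 0.32 to 0.64 in these comparisons, and that of the replication genes from 0.40 to 0.85, -0.70 to -0.40, -0.15 to 0.18 and 0.43 to 0.75.

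Whether replicate numbers shared between groups pair the libraries could not be decided from the values. Deviations from the group mean correlated at -0.186 to 0.046 between same-numbered libraries and at up to 0.186 between others. In a group of 2 libraries the deviations are mirror images, so these correlations cannot show whether libraries were paired. Only knockout CD has a replicate 3, so the block fits that library exactly and takes it out of the fold changes that involve knockout CD. With the replicate block the medians of mitosis and replication genes were 0.33 and 0.47 in knockout CD against wild type CD and -0.29 and -0.42 in knockout VOFD against knockout CD. These equal the medians without knockout CD library 3 and are no separate check. With the block, Cdkn2b in infertile against fertile missed the threshold by limma (adjusted p = 0.0501). The block turned Ccnb1 (-0.03), Cdk1 (-0.04) and Tyms (0.04) in knockout CD against wild type CD, and Ccnb1 (0.10), Cdk1 (0.06) and Nusap1 (-0.01) in knockout VOFD against knockout CD. With the numbers crossed between knockout VOFD and wild type CD, an alternative chosen after seeing the data, 0 members and 11 genes were called.

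Genes with fold changes near 0 also changed sign under scaling or when 1 library was left out, and none of them was called. With median-of-ratios scaling and quantile normalisation, knockout CD against wild type CD gave Ccnb1 -0.11 and -0.07, Cdk1 -0.18 and -0.07, Gmnn -0.05 and -0.03, and Pcna -0.09 with the first only. Knockout VOFD against knockout CD gave Ccnb1 0.09 and 0.10, Cdk1 0.11 and 0.09, and Tyms 0.04 and 0.07, and infertile against fertile gave Nusap1 -0.15 and -0.17. Without a single library, knockout CD against wild type CD ranged from -0.03 to 0.26 for Ccnb1, -0.11 to 0.17 for Cdk1 and -0.16 to 0.09 for Tyms. Knockout VOFD against knockout CD ranged from -0.18 to 0.10 for Ccnb1, -0.08 to 0.06 for Cdk1, -0.15 to 0.01 for Tyms and -0.01 to 0.12 for Nusap1. Rrm2 ranged from -0.44 to 0.05 in knockout VOFD against wild type CD, and Nusap1 from -0.07 to 0.05 in infertile against fertile. The cause was not tested.

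The difference between groups in the gap between mitosis and replication levels was -0.02 for knockout CD minus wild type CD, and 0.05 from medians of levels and from summed TPM. For knockout VOFD minus knockout CD it was 0.08, and 0.01 from summed TPM. For knockout VOFD minus wild type CD it was 0.05, and 0.13 from medians. The pooled spread between libraries of 0.06 applies to the gap of mean levels only. From medians, the SD was 0.05 in knockout VOFD, 0.10 in knockout CD and 0.09 in wild type CD.

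Over all genes, infertile against fertile gave 38 calls, 4 with no filter, 64 with median-of-ratios scaling, 59 with quantile normalisation, 15 with the block and 665 without knockout CD library 1. Knockout CD against wild type CD gave 17, 3 with no filter, 27 with the block and 174 without that library. Knockout VOFD against knockout CD gave 7, 4 with a pseudocount of 0.1 and 104 without that library. Knockout VOFD against wild type CD gave 2, 7 with a pseudocount of 0.1, 5 with no filter and 12 with the block. TPM gives no depth by which to weigh low genes such as Cdc6.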
